A study of Mus musculus with 13 samples.

Results

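Messenger RNA of 8 leukocyte marker genes was examined in melanoma cells recovered from mouse lung metastases: Ptprc, Laptm5, Coro1a, Tyrobp, Fcer1g, S100a8, S100a9 and Cd79a. They were taken as a fixed list of symbols, and each had 1 row among the 22656 genes of the table. They count as chosen by their normalised counts in the comparison of host genotypes, which was known when the list was drawn up, so their genotype values are a description, without a test. The melanoma line was B16F10-TR-shApoe, a derivative of the mouse line B16F10 that carries a hairpin against Apoe. The cells had been injected into a tail vein of knock-in mice carrying APOE2 (8 libraries) or APOE3 (5 libraries), human variants of apolipoprotein E, and lungs were taken on day 15. Living cells that carried GFP and lacked CD45 on their surface were sorted from digested lung, and libraries were made with a kit that reads the 3′ end of polyadenylated transcripts. All libraries share 1 tumour line, the hairpin and the sort; the labels give no age or sex of the hosts and do not say how many mice stand behind a library. Nothing says whether libraries of a group were processed separately, so the spread between them may be partly technical.

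The markers cover several layers of leukocyte biology. CD45, the protein of Ptprc, is a tyrosine phosphatase on the surface of nearly all nucleated blood cells, and a sort for cells without it is meant to leave leukocytes out. Laptm5 (a lysosomal membrane protein) and Coro1a (an actin-binding protein) are made across leukocyte lineages. Tyrobp (DAP12) and Fcer1g (the Fc receptor gamma chain) are short adapters of myeloid and natural killer cells that pass receptor signals to the kinase Syk through tyrosine motifs called ITAMs. S100a8 and S100a9 encode the subunits of calprotectin, an abundant cytosolic protein of neutrophils and monocytes. Cd79a encodes a signalling chain of the B-cell receptor, which also carries an ITAM.

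Recovered reads, the whole read numbers behind the deposited normalised counts, ranged from 7080308 to 13039989 per library, and APOE2 replicate 1 was the deepest library. The 8 genes together had 18.9 to 76.3 reads per 1000000, with the highest share also in APOE2 replicate 1. Melanocyte genes marked the cells as labelled: Dct had 101484 to 323071 normalised counts and Pmel 43422 to 70028. Reads carried no molecular identifiers, so copies of the same molecule may be counted more than once. The spread given below for counting alone was worked out from read numbers and may therefore be too small. Genes entered the test when their mean over all 13 libraries reached 10 normalised counts, and 5 of the 8 markers passed: Laptm5, Tyrobp, Fcer1g, S100a8 and S100a9. Ptprc, Coro1a and Cd79a, with means of 9.64, 8.32 and 2.20, did not.

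Ptprc (ENSMUSG00000026395, chromosome 1, 138062861 to 138175708, minus strand, GRCm38, the build that mm10 names) was low but present in all 13 libraries. In APOE2 its normalised counts had a lowest value of 1.01, a median of 6.24 and a highest value of 16.4. The values of APOE3 replicates 1 to 5 were 4.21, 6.78, 38.5, 11.3 and 9.26. The genotypes overlapped, and the single high library was APOE3 replicate 3 with 37 reads, beside 1 to 24 reads in the other 12. The group means were 6.90 ± 5.45 (SD, n = 8) and 14.01 ± 13.9 (SD, n = 5), and counting alone would give an SD of 2.53 and 3.83. Without APOE3 replicate 3 the APOE3 mean was 7.89 ± 3.07 (SD, n = 4). Transcripts for the antigen used to gate leukocytes out came to 129 reads in all.

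Laptm5 (ENSMUSG00000028581, chromosome 4, 130913125 to 130936141, plus strand) was the most abundant of the markers made across leukocytes and differed widely between APOE2 libraries. Its APOE2 values had a lowest value of 5.52, a median of 29.5 and a highest value of 126 normalised counts. APOE3 replicates 1 to 5 had 49.5, 62.1, 56.2, 81.0 and 61.3. The APOE3 libraries lay close together, and the overlap came from APOE2 replicates 1 and 7 (126 and 70.8). All other APOE2 libraries, at most 41.2, lay below the lowest APOE3 value of 49.5. The coefficient of variation was 94.0% in APOE2 and 18.9% in APOE3, with 14.2% and 13.1% from counting alone. On the scale of log2(normalised count + 1), used for all log2 values below, APOE2 minus APOE3 was −1.05 ± 0.53 (SE). The log2 ratio of the mean counts, 42.0 ± 39.5 (SD, n = 8) to 62.0 ± 11.7 (SD, n = 5), was −0.56, since APOE2 replicate 1 weighs more there. Without that library the APOE2 mean was 29.98 ± 21.7 (SD, n = 7).

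Coro1a (ENSMUSG00000030707, chromosome 7, 126699773 to 126707787, minus strand) had 0 reads in 3 APOE2 libraries. The APOE2 values had a median of 3.10 and a highest value of 12.9 normalised counts. APOE3 replicates 1 to 5 had 3.16, 26.0, 6.24, 17.9 and 15.04. The ranges overlapped although the 3 highest values were all from APOE3. The means were 4.98 ± 5.54 (SD, n = 8) and 13.7 ± 9.18 (SD, n = 5). An exon of Bola2 overlaps it on the opposite strand. The use of strand information by the counting step is not given in the sources used here, so reads of the 2 genes may be mixed.

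Tyrobp (ENSMUSG00000030579, chromosome 7, 30413760 to 30417585, plus strand) ranged from no reads to 55.8 normalised counts. In APOE2 the lowest value was 0, the median 19.8 and the highest 42.3. Among APOE3 replicates 1 to 5 the values were 55.8, 27.1, 7.29, 37.7 and 15.04. APOE2 replicates 3 and 6 stood at the bottom, with 1 and 0 reads, and the genotypes otherwise overlapped. For replicate 6, 0 reads allow up to 0.412 reads per 1000000 (3 counts). The group means were 19.99 ± 14.9 (SD, n = 8) and 28.6 ± 19.1 (SD, n = 5), with a log2 difference of −0.95 ± 0.84 (SE). The log2 ratio of mean counts was −0.52, and the log2 difference was −0.43 without APOE2 replicate 6 and −0.57 without APOE2 replicate 3.

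Fcer1g (ENSMUSG00000058715, chromosome 1, 171229572 to 171234365, minus strand), the other adapter, had the lowest coefficient of variation of the 8 markers over all 13 libraries (26.0%). Its APOE2 values had a lowest value of 25.6, a median of 45.7 and a highest value of 60.7 normalised counts. In APOE3 the values were, from replicate 1 to 5, 44.2, 71.2, 56.2, 41.4 and 35.9. The means were 43.7 ± 10.8 (SD, n = 8) and 49.8 ± 14.1 (SD, n = 5), a log2 difference of −0.18 ± 0.33 (SE). It was −0.044 without APOE3 replicate 2, −0.080 without APOE2 replicate 8 and −0.29 without APOE3 replicate 5. Its coefficient of variation in APOE2 was 24.6%, against 14.6% from counting alone, whereas Tyrobp had 74.4% against 21.1%. In APOE3 that of Fcer1g was 28.3%, above the 18.9% of Laptm5. APOE2 replicates 3 and 6, nearly empty of Tyrobp, held 37.7 and 47.4 normalised counts of Fcer1g, close to its median. No annotated exon of another gene overlaps either adapter in GENCODE M21, and the gene next to the 3′ end of Tyrobp, Hcst on the opposite strand, lies 127 bases away.

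S100a8 (ENSMUSG00000056054) and S100a9 (ENSMUSG00000056071) lie 22597 bases apart on chromosome 3 with their 3′ ends facing each other. S100a8 is at 90668978 to 90670035 on the plus strand and S100a9 at 90692632 to 90695721 on the minus strand. S100a8 in APOE2 had a lowest value of 37.0, a median of 120.0 and a highest value of 233 normalised counts. It had 209, 127, 90.5, 83.8 and 78.7 in APOE3 replicates 1 to 5. The genotypes covered the same range, with means of 122 ± 61.9 (SD, n = 8) and 118 ± 54.2 (SD, n = 5) and a log2 difference of −0.035 ± 0.36 (SE), which turned positive in 4 of 13 fits with a library omitted. S100a9 in APOE2 had a lowest value of 30.5, a median of 59.2 and a highest value of 194 normalised counts. It had 131, 28.2, 81.2, 27.3 and 18.5 in APOE3 replicates 1 to 5. Replicate 1 was the highest library of its group for both genes, in both genotypes. The S100a9 means were 72.2 ± 51.4 (SD, n = 8) and 57.2 ± 47.9 (SD, n = 5), a log2 difference of 0.50 ± 0.46 (SE). It was 0.20 without APOE3 replicate 5, 0.27 without APOE2 replicate 1 and 0.89 without APOE3 replicate 1. Without APOE2 replicate 1 the APOE2 mean of S100a9 was 54.8 ± 15.8 (SD, n = 7), and that of S100a8 was 106 ± 46.1 (SD, n = 7).

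The 250 bases before the RefSeq start of each calprotectin gene are shown because this neighbouring pair was the first examined for shared variation below. They come from the RefSeq promoter table for GRCm38.p6, at chr3:90668821-90669070 (plus strand) for S100a8 and chr3:90695722-90695971 (minus strand) for S100a9, each written 5′ to 3′ along its gene. The RefSeq start of S100a8, at 90669071, lies 93 bases downstream of the GENCODE start given above, so the window reaches into the GENCODE gene; for S100a9 both starts are the same. Capitals mark matches on either strand to GAGGAA (the core of sites bound by PU.1, a transcription factor of myeloid and B cells), TTGCNNAA (a C/EBP-type site) or TATAAA (the TATA box).
S100a8: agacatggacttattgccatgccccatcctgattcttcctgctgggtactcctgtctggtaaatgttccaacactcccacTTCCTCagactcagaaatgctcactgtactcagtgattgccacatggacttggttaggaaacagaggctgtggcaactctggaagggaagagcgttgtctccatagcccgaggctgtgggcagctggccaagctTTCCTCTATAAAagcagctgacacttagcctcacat
S100a9: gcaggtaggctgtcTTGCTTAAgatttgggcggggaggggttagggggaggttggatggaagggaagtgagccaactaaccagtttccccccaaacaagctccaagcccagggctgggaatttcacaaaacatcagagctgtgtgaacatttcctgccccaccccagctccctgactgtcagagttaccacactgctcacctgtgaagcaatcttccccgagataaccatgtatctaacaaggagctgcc
S100a8 held 2 GAGGAA matches, the nearer one directly next to a TATAAA that begins 30 bases before the RefSeq start. S100a9 held 1 TTGCNNAA match and neither of the others. Among all 32851 promoters of this length, 23.3% held GAGGAA, 9.56% held TTGCNNAA and 12.4% held TATAAA. Promoters were found for 7 of the 8 markers, 9 promoters in all. GAGGAA was present in 4 of the 9 promoters, the unit of the shares above, and so for 4 of the 7 genes (Ptprc, Laptm5, S100a8 and Cd79a). These matches describe letters in a window and not binding. Spi1, the gene of PU.1, had 9.02 ± 5.34 normalised counts in APOE2 (SD, n = 8), against 6.06 ± 4.45 in APOE3 (SD, n = 5).

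Cd79a (ENSMUSG00000003379, chromosome 7, 24897381 to 24902197, plus strand), the B-cell marker of the list, had no reads in 10 of 13 libraries. It had 7 reads (6.04 normalised counts) in APOE2 replicate 7, 19 reads (21.5) in APOE3 replicate 2 and 1 read (1.04) in APOE3 replicate 3. In the 10 libraries at 0 the depth allows at most 0.230 to 0.424 reads per 1000000 (3 counts). Its partner chain Cd79b was also sparse: its normalised counts averaged 1.60 ± 2.17 in APOE2 (SD, n = 8), and in APOE3 1.93 ± 2.30 (SD, n = 5). The B-cell part of the list rests on 27 reads. Immunoglobulin genes were more abundant: Ighm had a lowest value of 6.43, a median of 23.9 and a highest value of 50.1 in APOE2, and 121, 28.2, 225, 15.1 and 69.4 in APOE3 replicates 1 to 5. The library with most Cd79a, APOE3 replicate 2, was the fourth of 5 in Ighm. In bulk samples such as these, fewer cells of a type and less RNA per cell cannot be told apart.

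**Figure D1:**
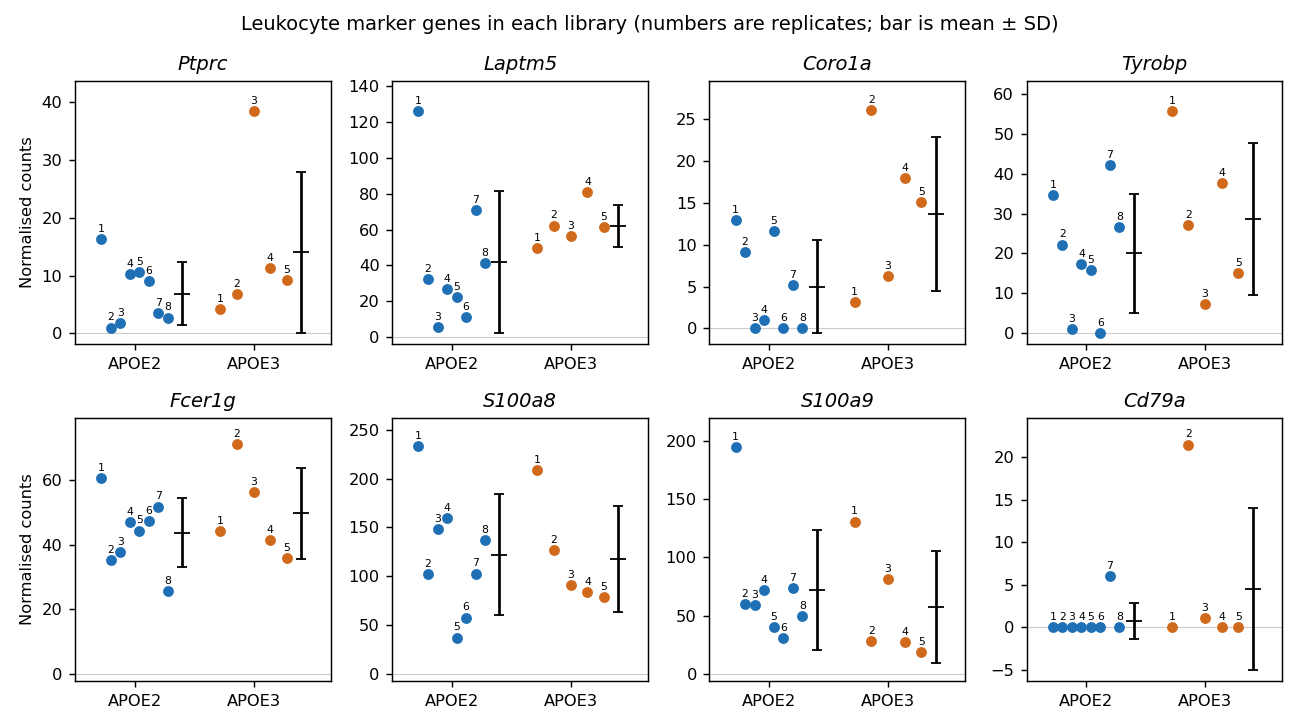
Normalised counts of the 8 marker genes in each library (vertical axis, a separate scale per gene) for 8 APOE2 (blue) and 5 APOE3 (orange) libraries, with replicate numbers and black bars for the mean ± SD. APOE2 replicate 1, the deepest library, is the highest APOE2 library for 6 of the 8 genes, and the share over all genes was not computed. Relative to its mean over all libraries Fcer1g varies least, and Cd79a is at 0 in 10 libraries.

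Against the whole table, the markers did not stand among the genes called different between genotypes. By limma with Benjamini-Hochberg adjustment, 98 of 12403 genes (0.79%) passed an adjusted p of 0.05, 51 higher in APOE2 (0.411%) and 47 lower (0.379%), and 0 of the 5 markers tested were among them. At an unadjusted p under 0.05 there were 14.2% of all genes and 0 of the 5 markers. On the recovered reads edgeR's quasi-likelihood test called 1.11% and DESeq2 2.51% of all genes, and again 0 of the 5. The contrast was known when the markers were chosen, so nothing is read from these counts. The median log2 difference of the 5 was −0.18, with 4 below 0, beside a median of 0.0004 over all genes tested. In 0 of the 5 did the genotypes not overlap, beside 0.984% of all genes tested. The genotypes also overlapped for Ptprc, Coro1a and Cd79a, which did not pass the filter and have no part in that share. The count of 98 fell to 9 without APOE3 replicate 3 and rose to 228 without APOE3 replicate 1.

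Whether the markers moved together was examined within the 8 APOE2 libraries, where the genotype contrast plays no part; the 5 APOE3 libraries were too few for a correlation. All 28 pairs were computed, and 24 had a Pearson r above 0. The share of positive r among other gene pairs was not computed, so nothing is read from that count. Of the 28, 2 had an exact permutation p under 0.05 and 0 passed after Benjamini-Hochberg adjustment. S100a8 and S100a9 had r = 0.78 (exact permutation p = 0.0246, adjusted 0.344) and Spearman's rho = 0.71 (exact permutation p = 0.0576, adjusted 0.389). The r was 0.74 without the 2 libraries farthest from the S100a8 median and 0.72 to 0.84 with 1 library left out.

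Laptm5 and Tyrobp had the closest relation. Their r was 0.86 (exact permutation p = 0.00360, adjusted 0.101), and their rho of 0.95 passed the adjustment (exact permutation p = 0.00114, adjusted 0.0319), the single pair of 28 to do so. The pair was singled out after its value was seen. Its r was 0.89 without the 2 libraries farthest from the Laptm5 median (adjusted p = 0.0389 by the exact permutation test). Those 2 libraries were picked by the Laptm5 values themselves. The rho without them, 1.00, did not pass (adjusted p = 0.0778 by the exact permutation test). The r of the pair was 0.90 without APOE2 replicate 1, and 0.80 to 0.92 over all single omissions. The rank relation did not pass with any 1 library left out (adjusted p from 0.0583 to 0.189). APOE2 replicates 3 and 6 were lowest in both genes, and replicates 1 and 7 were the highest pair in both. Without replicates 3 and 6, r was 0.89 (exact permutation p = 0.0181, n = 6), close to its value over all 8. Among the 5 APOE3 libraries the values of Tyrobp spread from 7.29 to 55.8 while those of Laptm5 stayed between 49.5 and 81.0.

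Tyrobp and Fcer1g, which serve as adapters in many of the same cells, gave r = 0.042 (exact permutation p = 0.915, adjusted 0.997) and rho = 0.24 (exact permutation p = 0.582). The r was negative with libraries scaled to equal totals (−0.0072) and without APOE2 replicate 1 (−0.15), replicate 3 (−0.068) or replicate 7 (−0.074). At 8 libraries this does not show that the genes are unrelated. Fcer1g and S100a8 gave r = 0.040, and Fcer1g and Laptm5 gave r = 0.32, neither past the adjustment.

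**Figure D2:**
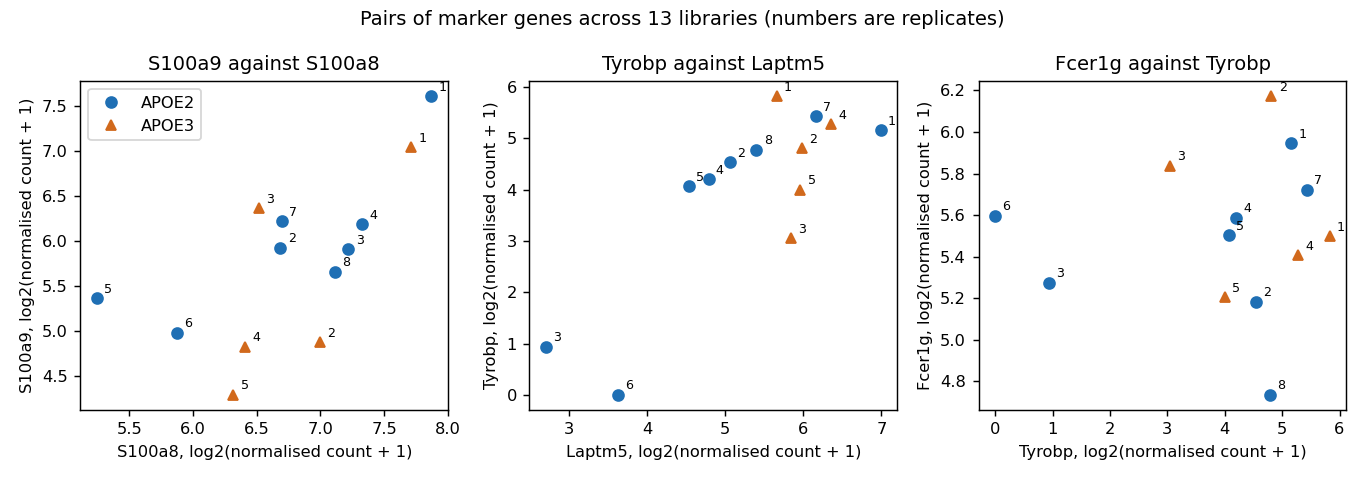
Log2(normalised count + 1) of 3 pairs of markers, with 1 point per library (circles APOE2, triangles APOE3, replicate numbers beside them). S100a9 against S100a8 and Tyrobp against Laptm5 run upward over the APOE2 libraries (r = 0.78 and 0.86), and Fcer1g against Tyrobp does not (r = 0.042).

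**Figure D3:**
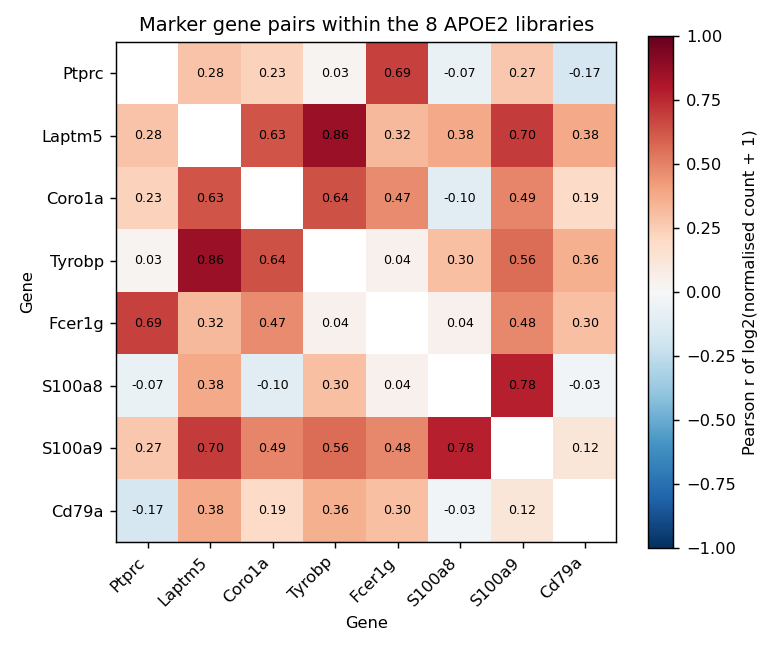
Pearson r of log2(normalised count + 1) over the 8 APOE2 libraries for each pair of the 8 markers (colour and number, from −1 to 1). Laptm5 with Tyrobp is the strongest pair at 0.86, and the column of Cd79a rests on 1 library with reads.

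Depth and lung epithelial RNA were set beside the 5 markers in the same 8 libraries, 10 relations in all. S100a9 with the library's total reads had the highest Pearson r of the 10 (r = 0.91, exact permutation p = 0.00598, adjusted 0.0598), with rho = 0.67 (exact permutation p = 0.0831), and r was 0.30 without APOE2 replicates 1 and 6, so it rests on those libraries. With total reads Laptm5 had r = 0.69, S100a8 0.69, Tyrobp 0.53 and Fcer1g 0.31. With the mean log2 value of 8 alveolar type 2 markers, Laptm5 had r = 0.66, Fcer1g 0.54, S100a9 0.42, Tyrobp 0.29 and S100a8 0.27. By the exact permutation test 0 of the 10 passed the adjustment (adjusted p from 0.0598 to 0.526), and 1 of 10 had an unadjusted p under 0.05. By rank, Tyrobp with total reads and Fcer1g with the alveolar type 2 mean each had rho = 0.81 (exact permutation p = 0.0218, adjusted 0.109), and Laptm5 with total reads had rho = 0.74 (exact permutation p = 0.0458, adjusted 0.153). Without APOE2 replicates 1 and 6 the r of Tyrobp with total reads was −0.013, and without replicates 3 and 5 that of Fcer1g with the alveolar type 2 mean was 0.92. What part depth or alveolar type 2 RNA plays in the marker values was not tested.

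The genes with the most similar pattern were sought among all genes tested, by Pearson r over the 13 libraries after removing each genotype's mean. Such r values are the highest of 12402 and are given as a description. Ctss, the lysosomal protease cathepsin S, ranked first for both Laptm5 (0.87) and Tyrobp (0.89). Laptm5 was followed by Wipf1 (0.86) and Hps5 (0.84), and Tyrobp by Grhl1 (0.89) and Gm13840 (0.86). Laptm5 itself stood 28th for Tyrobp and Tyrobp 20th for Laptm5, each at r = 0.79. Nearest to Fcer1g were Gpr158 (0.88), Cers4 (0.88) and Eif3b (0.86), while Tyrobp was at −0.0054. Nearest to S100a8 were Jph4 (0.80), Gm10076 (0.79) and Mylpf (0.79), with S100a9 19th at 0.70. Nearest to S100a9 were Zfp53 (0.85), Rc3h1 (0.85) and A430010J10Rik (0.82), with S100a8 50th. For the 3 sparse markers the nearest genes were Mxd4, Cgnl1 and Gstt2 for Ptprc (0.80 to 0.81), Fitm2, Lhfpl2 and Chd1l for Coro1a (0.85 to 0.86), and Gm15564, Smarca4 and Pdia4 for Cd79a (0.87 to 0.91), all resting on few reads.

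Other genes of the same lineages were mostly sparse. Of 17 neutrophil genes listed, 3 passed the filter on low values, and these were S100a8, S100a9 and Lcn2; Csf3r, Cxcr2, Mmp8, Mmp9, Retnlg, Ngp and Camp, which neutrophils or their precursors make, had means between 1.35 and 6.59 normalised counts. Of 22 monocyte and macrophage genes 6 passed, and Adgre1, Aif1 and Ms4a7 had means under 1. Of 17 B-cell genes 3 passed (Ighm, Igkc and Ebf1). Of 20 T and NK cell genes 2 passed (Ccl5 and Lck), and 7 had means under 1, among them Cd3d, Cd3e, Cd4 and Cd8a. The means of Ccl5 and Lck were 371 and 30.2 normalised counts, and which cells made their RNA was not tested. Mast cell and basophil genes had 0 that passed, and platelet genes 1 (Ppbp).

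In the genotype comparison these lists gave few calls. Lyz2, lysozyme, which macrophages and alveolar type 2 cells both make, was the single call among the 6 monocyte and macrophage genes by limma. It fell in APOE2, with normalised counts of 1162 ± 694 (SD, n = 8) against 5288 ± 3944 (SD, n = 5), a log2 difference of −2.21 ± 0.45 (SE) and a limma adjusted p of 0.0240. The call was lost without APOE3 replicate 3 or replicate 4 (adjusted p up to 0.0811). Alveolar type 2 genes moved beside it: 7 of 9, Lyz2 among them, were called lower, with summed levels of 985 to 6242 in APOE2 and 4986 to 33023 normalised counts in APOE3. The calls of Sftpb, Sftpc and Sftpd, surfactant proteins, held in all 13 fits with a library omitted; that of Napsa was lost in 10. The part of each cell type in Lyz2 was not tested. The median log2 difference of the 6 monocyte and macrophage genes was −0.61, and the next smallest p was that of Ctss (−0.81 ± 0.67 SE, limma adjusted p = 0.615).

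Among 10 tested genes made across leukocytes 0 were called by limma, edgeR or DESeq2, and 3 had a limma unadjusted p under 0.05. Arhgdib, Ptpn6 and Lcp1 averaged 1450, 203 and 107 normalised counts, and the other means ran from 10.0 (Cd53) to 49.7 (Laptm5). Which cells made this RNA was not tested. The median log2 difference of the 10 was −0.54, and 9 were below 0. The integrin chain Itgb2, the exception, had 2.07 ± 0.77 (SE, limma adjusted p = 0.217), and Arhgdib had −0.38 ± 0.14 (SE, adjusted p = 0.221). Of the 3 B-cell genes limma and edgeR called 0, DESeq2 called Ighm (adjusted p = 0.0311), and 2 had a limma unadjusted p under 0.05. Their values were −2.34 ± 0.89 (SE) for Igkc and −1.55 ± 0.59 (SE) for Ighm, with limma adjusted p-values of 0.224 and 0.230. Reads of immunoglobulin segments can be shared between related genes, and the counting rule is not given here, so these values are uncertain.

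ITAM receptors and the kinases and adapters next to them were examined as the pathway of Tyrobp, Fcer1g and Cd79a. Of 28 listed genes 7 passed the filter, and limma, edgeR and DESeq2 called 0 of them, with 1 at a limma unadjusted p under 0.05. The 7 were Tyrobp, Fcer1g, Lyn, Syk, Ptpn6, Lat2 and Plcg2. The kinase Syk averaged 45.1 ± 19.4 normalised counts in APOE2 (SD, n = 8), against 31.4 ± 19.1 in APOE3 (SD, n = 5), a log2 difference of 0.73 ± 0.50 (SE, limma adjusted p = 0.526). The phospholipase Plcg2 had 77.9 ± 14.7 and 47.1 ± 43.5 (SD), a log2 difference of 1.30 ± 0.49 (SE, limma adjusted p = 0.220). Receptors that use the adapters were all under the filter: Trem2 and Fcgr1 had reads in 2 of 13 libraries each and Oscar in 3, while Fcgr3, Fcgr4 and Trem1 had means of 1.51, 6.04 and 9.41 normalised counts. Hcst, the adapter gene beside Tyrobp, had no reads in 8 libraries.

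Other S100 genes were set beside the calprotectin pair. Of 14 listed 12 passed, limma and edgeR called 0, DESeq2 called 1, and 2 had a limma unadjusted p under 0.05. S100g, a calcium-binding protein, had −2.53 ± 0.68 (SE, limma adjusted p = 0.0823), and S100a11 had −0.65 ± 0.28 (SE, adjusted p = 0.296). The median of the 12 was −0.049.

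The remaining leukocyte lists gave 0 calls with limma, edgeR and DESeq2, and 0 genes at a limma unadjusted p under 0.05. For alveolar macrophage genes the 2 tested were Atp6v0d2 (0.48 ± 0.83 SE) and Chil3 (0.080 ± 0.65 SE). For plasma cells they were Igha (−1.06 ± 1.31 SE) and Mzb1 (0.072 ± 0.82 SE), for T and NK cells Ccl5 (−0.29 ± 0.19 SE) and Lck (−0.39 ± 0.55 SE), and for dendritic cells Zbtb46 (−0.68 ± 0.46 SE) and Batf3 (0.31 ± 0.54 SE). In the platelet list Ppbp had −0.99 ± 1.21 (SE), and in the neutrophil list Lcn2 had −1.47 ± 0.76 (SE). Summed over the neutrophil list, which S100a8 and S100a9 dominate, the libraries had 105 to 581 normalised counts in APOE2 and 132 to 413 in APOE3. Over the B-cell list the sums were 31.3 to 154 and 104 to 426.

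Markers of other lung cells were set beside these lists. Endothelial genes, with 2 of 14 called lower by limma (Esam and Calcrl), summed to 801 to 1204 in APOE2 and 1088 to 2322 normalised counts in APOE3. DESeq2 called 7 of the 14, and the limma calls of Esam and Calcrl were each lost in 4 of 13 fits with a library omitted (adjusted p up to 0.0904 and 0.0892). Fibroblast and smooth muscle genes, with 2 of 8 tested called lower (Acta2 and Mgp), summed to 214 to 670 and 452 to 2789. The call of Mgp was lost in 11 of the 13 fits (adjusted p up to 0.122) and that of Acta2 in 2 (up to 0.0768). Erythroid genes had 0 calls by limma, edgeR and DESeq2 among 3 tested, with 0 at an unadjusted p under 0.05. Melanocyte genes summed to 303366 to 462394 in APOE2 and 220647 to 334738 normalised counts in APOE3. Of the 10 tested 7 were above 0 and 3 below, limma called 0, and edgeR and DESeq2 called 1 each. Dct had 0.64 ± 0.19 (SE, limma adjusted p = 0.126) and Tyrp1 0.24 ± 0.13 (SE, adjusted p = 0.410). The part of the lung cells or the tumour cells in the marker values was not tested.

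**Figure D4:**
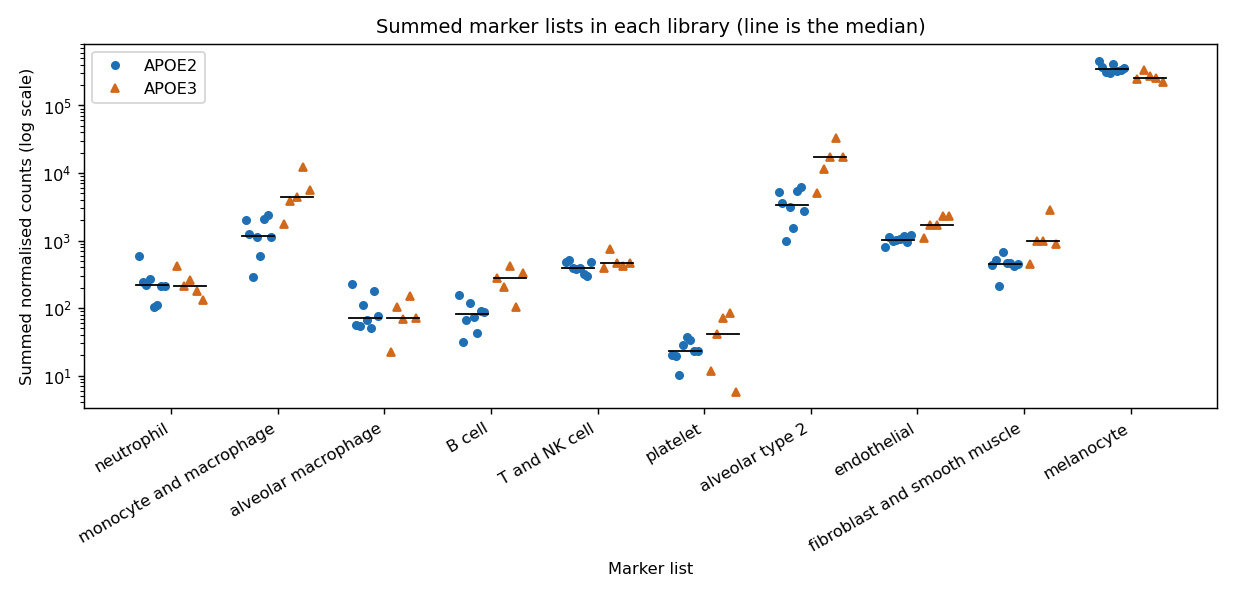
Summed normalised counts (vertical log axis) of 10 marker lists in each library (circles APOE2, triangles APOE3; lines are medians). Neutrophil sums overlap fully between genotypes (medians 217 in APOE2 and 210 in APOE3), and alveolar type 2 sums are higher in most APOE3 libraries (medians 3359 and 17110). Melanocyte sums exceed all other lists and have the higher median in APOE2 (344767, against 255831 in APOE3).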

How the data were processed

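RNA-seq was available for 13 libraries, 8 from APOE2 and 5 from APOE3 hosts. Normalised counts (a signal of at least 0) were deposited by the authors for each gene and library. The submitters' processing notes name mm10, STAR 2.6.0, featureCounts and DESeq2 1.28.1, with no role; annotation and strand are not given in the sources used here. In every column 100.0% of nonzero values were whole multiples (within 0.01 reads) of 1 step, and division by it gave the recovered reads. GENCODE M21 (GRCm38) gave symbols for 22649 of 22656 identifiers.

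Genes averaging 10 or more normalised counts were fitted with limma 3.58.1 (R 4.3.3, intensity trend) on log2(value + 1), two-sided, with Benjamini-Hochberg adjustment; the SE is moderated. For Ptprc, Coro1a and Cd79a no such fit was used. edgeR 4.0.16 and DESeq2 1.42.0 were run on recovered reads. Correlations used all 40320 orderings of 8 libraries (smallest p 2.48e-05), two-sided. The fits and the permutation were tested on simulated data. Named genes were the 8 markers, list genes past the threshold or with the 2 smallest p-values of a list, and the 3 genes most like each marker; Cd79b, Spi1, Hcst and the sparse lineage genes were added after their values were seen. The markers and all 17 lists were chosen with earlier results of these data known. Libraries sharing a replicate number did not deviate together over the genes tested (correlations −0.063 to 0.014), and the main fit did not pair them. Whether they shared a processing batch was not tested.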

Additional observations from a re-analysis of the deposited data

Results flagged for a closer look

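Dixon's criterion, which divides the distance from an extreme library to the next one by the whole range of its group, was applied to every marker in both genotypes. In 16 groups 4 libraries stood apart, all on the high side. The criterion was applied to normalised counts without taking logs. Chance gives about 1 in 20 groups where values are normally distributed, which skewed counts need not be. That rate does not apply to the 2 Cd79a groups, which are nearly all zeros, so that any library with more than a few reads stands apart. Ptprc had 38.5 normalised counts in APOE3 replicate 3, and the next value was 11.3. S100a9 had 194 in APOE2 replicate 1, and the next was 73.3; S100a8 in that library, 233, did not stand apart by the same criterion. Cd79a had 6.04 in APOE2 replicate 7, the single APOE2 library with reads, and 21.5 in APOE3 replicate 2, where the next was 1.04. Without that library the APOE3 mean of Cd79a was 0.260 ± 0.520 (SD, n = 4).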

How the results depend on the processing

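Over all genes, the count called different between genotypes was 98. It was 9 with no filter on low values, 0 with limma without the trend (1599 at an unadjusted p under 0.05), 311 with DESeq2 on recovered reads and 43 with the replicate block; the samples share only a number, so that fit is given for completeness. With 1 library left out the count ran from 9 (without APOE3 replicate 3) to 228 (without APOE3 replicate 1), and it was 28 without APOE2 replicate 2, 30 without APOE3 replicate 4, and with APOE2 replicates 1, 5, 7 or 8 omitted singly 49, 43, 50 or 57. The cause was not tested. Equal totals gave 38 higher and 54 lower genes, and TMM scaling 68 and 46.

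The log2 differences of the 5 markers tested moved by less than their residual SD in the settings run. Those SDs were 1.09 for Laptm5, 1.74 for Tyrobp, 0.38 for Fcer1g, 0.76 for S100a8 and 0.94 for S100a9. Each SD was larger than the size of the difference itself, so this does not show that a difference is stable. Coro1a and Cd79a had no fit with a library omitted and Ptprc only 5. Laptm5 ran from −1.35 to −0.74 with 1 library left out and was −0.54 with edgeR, Tyrobp from −1.34 to −0.43, Fcer1g from −0.29 to −0.044, S100a9 from 0.20 to 0.89, and S100a8 from −0.19 to 0.20. The sign of S100a8 also changed in 3 of 11 other settings. Tyrobp with Fcer1g changed sign with equal totals (r = −0.0072) and ran from −0.15 to 0.35 with 1 library left out. For Laptm5 with Tyrobp r was 0.89 without the 2 libraries farthest from the median and 0.80 to 0.92 with 1 left out. Its settings were chosen after seeing the data. Depth limits Ptprc, Coro1a and Cd79a most, with 129, 110 and 27 reads in all libraries together.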

Other observations

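Igkc, the kappa light chain, had a lowest value of 0, a median of 11.04 and a highest value of 46.3 normalised counts in APOE2, and 68.5, 35.0, 95.7, 4.71 and 131 in APOE3 replicates 1 to 5. The ranges overlapped between genotypes. APOE3 replicate 4 was the lowest APOE3 library in Igkc and in Ighm, although it had the most Laptm5 (81.0) and Lyz2 (11891) of its group.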
